A study of Mus musculus with 51 samples.

Results

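The CDK inhibitors and D cyclins were followed across 4 blood-forming cell populations of Mll-AF9 knock-in and wild type mice. The set holds 10 genes, the CIP/KIP inhibitors Cdkn1a, Cdkn1b and Cdkn1c, the INK4 inhibitors Cdkn2a, Cdkn2b, Cdkn2c and Cdkn2d, and the D cyclins Ccnd1, Ccnd2 and Ccnd3. Membership was by gene name, and every probe set annotated to 1 of these genes was taken, which gave 22 of 34945 probe sets and 10 of 18193 genes. The series measured total RNA on 51 Affymetrix arrays, and its stated question was which genes differ between each Mll-AF9 population and its wild type counterpart. Mll-AF9 mice carry a knock-in that makes the leukaemia fusion of Mll (Kmt2a) with Af9 (Mllt3). The populations, sorted by FACS out of whole bone marrow, were progenitors of granulocytes and macrophages (GMP), common myeloid (CMP) and common lymphoid (CLP) progenitors, and blood stem cells (HSC). Mll-AF9 contributed 4 GMP, 4 CMP, 7 CLP and 5 HSC replicates, and wild type 5 GMP, 5 CMP, 8 CLP and 5 HSC replicates. Both genotypes went through the same protocol, with cells put straight into extraction buffer and RNA labelled after 2-cycle amplification. The mice's age, zygosity and sex are not stated in the labels.

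Cyclin-dependent kinases drive a cell out of G1 when a D cyclin binds Cdk4 or Cdk6 and the complex phosphorylates the retinoblastoma protein, which then lets go of E2F transcription factors. INK4 proteins bind Cdk4 and Cdk6 and keep D cyclins away, while CIP/KIP proteins bind whole cyclin-kinase complexes, above all those of Cdk2. In blood formation, p57 (Cdkn1c) and p27 (Cdkn1b) are known for holding stem cells in quiescence, and p18 (Cdkn2c) for limiting stem cell self-renewal.

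All values below are log2 RMA intensities, differences are on the log2 scale, and 1 unit is a doubling. A level of 1 probe set cannot be set against that of another, so levels are compared between groups only. Background was 4.46, the 95th percentile of 112 receptor and keratin-associated genes not known to act in blood, and 55.5% to 63.2% of genes lay above it per replicate. A difference counts as called where limma's Benjamini-Hochberg adjusted p was under 0.05 over all 34945 probe sets, and precision is limited by how many arrays each group has. Whether replicates were separate animals is not stated, so a p-value here speaks of sample-to-sample spread, part of which may be technical. In sorted bulk RNA, fewer cells that express a gene and less RNA per cell cannot be told apart.

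Several facts of the series bear on the values. Hoxa9, which Mll fusions are known to raise, was read by 2 probe sets that did not tell the same. Probe set 1455626_at lay between 10.38 and 11.10 in Mll-AF9 GMP, against 8.16 and 9.49 in wild type GMP, and between 11.35 and 11.93 in Mll-AF9 CMP, against 8.84 and 9.42 in wild type CMP. Its genotype ranges overlapped in CLP and HSC. Hoxa9 probe set 1421579_at was free of overlap in CMP (6.23 to 6.69 in Mll-AF9, 5.47 to 5.81 in wild type) and in HSC (6.96 to 8.10 in Mll-AF9, 6.44 to 6.71 in wild type), but overlapped in CLP and in GMP, where it averaged 6.16 in Mll-AF9 and 6.26 in wild type. All 7 Mll-AF9 CLP and wild type CLP replicate 1 carry a CMP source name but a CLP title, which was followed. Il7r, a defining CLP marker, was below 9 in Mll-AF9 CLP replicates 5, 6 and 7 and in wild type CLP replicates 1 and 8. Mature neutrophil markers averaged 8.99 ± 1.95 in Mll-AF9 CLP (range 7.09 to 12.21) and 6.72 ± 2.50 in wild type CLP (range 4.03 to 11.48), and passed 10 in Mll-AF9 CLP replicates 1 and 2 and wild type CLP replicate 6. The mean of these markers varied in HSC as well, from 3.98 to 8.78 in Mll-AF9 and from 6.09 to 9.17 in wild type. CMP values were deposited with more decimals than the rest, so CMP may have been processed apart, and contrasts of CMP with other populations carry that limit. The 2 runs of 8 CMP replicates also differed for some members. Second runs were lower in 8 of 8 replicates for Ccnd2 1430127_a_at (differences of −1.08 to −0.42), 1416122_at (−1.23 to −0.31) and 1455956_x_at (−0.73 to −0.07). They were also lower in 8 of 8 for Cdkn1a 1421679_a_at (−1.11 to −0.17) and in 7 of 8 for Ccnd2 1434745_at (−0.87 to 0.05). For Ccnd1 1448698_at they were higher in 8 of 8 (0.04 to 0.76), and the mean of both runs was used. The mean level of Y-linked genes was 2.21 to 2.72 in every Mll-AF9 replicate and above 6 in 3 of 5 wild type GMP, 6 of 8 wild type CLP, 3 of 5 wild type CMP and 2 of 5 wild type HSC, so sex and genotype overlap. The 3′ minus 5′ difference of control probe sets, larger where labelled RNA is shorter, lay between 2.74 and 3.18 in Mll-AF9 GMP, 2.98 and 3.64 in Mll-AF9 CMP, 3.68 and 4.93 in Mll-AF9 CLP and 3.16 and 4.27 in Mll-AF9 HSC. In wild type it lay between 2.59 and 4.70 in GMP, 2.88 and 3.43 in CMP, 3.36 and 3.91 in CLP and 3.09 and 4.35 in HSC. Mll-AF9 CLP thus stood apart from Mll-AF9 GMP and CMP in this measure.

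The levels differed mainly between populations. Within a genotype, the probe sets of these genes that differed were almost all lower in GMP and CMP than in HSC or CLP. GMP against HSC gave 1 higher and 8 lower probe sets of 22 in Mll-AF9 (30.4% of all probe sets were called, 18.3% as higher and 12.1% as lower) and 6 lower in wild type (35.0% called, 13.1% lower). CMP against HSC gave 8 lower in Mll-AF9 (17.2% called, 7.56% lower) and 7 lower in wild type (19.2% called, 8.24% lower). The lower probe sets were those of Cdkn1c and the 3 D cyclins, joined in wild type CMP by 1 of Cdkn1a. As lower calls they are a larger share of 22 than of the whole array, but probe sets of 1 gene are not independent of each other. Counting both directions, the calls in wild type GMP against HSC were a smaller share of 22 than of the array.

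The contrasts with CLP ran in the same direction. GMP against CLP gave 8 lower in Mll-AF9 (27.4% called, 11.3% lower) and 6 lower in wild type (39.8% called, 14.5% lower), and CMP against CLP gave 6 lower in Mll-AF9 (16.4% called, 8.13% lower) and 5 lower in wild type (20.2% called, 8.97% lower). When the fit took in the 3′ minus 5′ measure, 7 of the 8 Mll-AF9 calls of GMP against CLP and 4 of the 6 of CMP against CLP were kept. GMP against CMP gave 2 lower in Mll-AF9 (19.7% called, 8.81% lower) and 3 higher with 1 lower in wild type (28.5% called, 16.4% higher and 12.1% lower). CLP against HSC gave 0 of 22 in limma in Mll-AF9 (2.97% called) and 0 of 22 in wild type (0.226% called), with 3 and 4 at an unadjusted p under 0.05. The share of all probe sets at that unadjusted p was not counted. In wild type GMP against CLP, and in GMP against CMP of both genotypes, all calls together were a smaller share than on the array. Contrasts within a genotype share samples, so their counts are not independent of each other. Of the 61 calls, 41 were kept whichever single replicate was left out, and those that were not are marked at the gene.

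**Figure D1:**
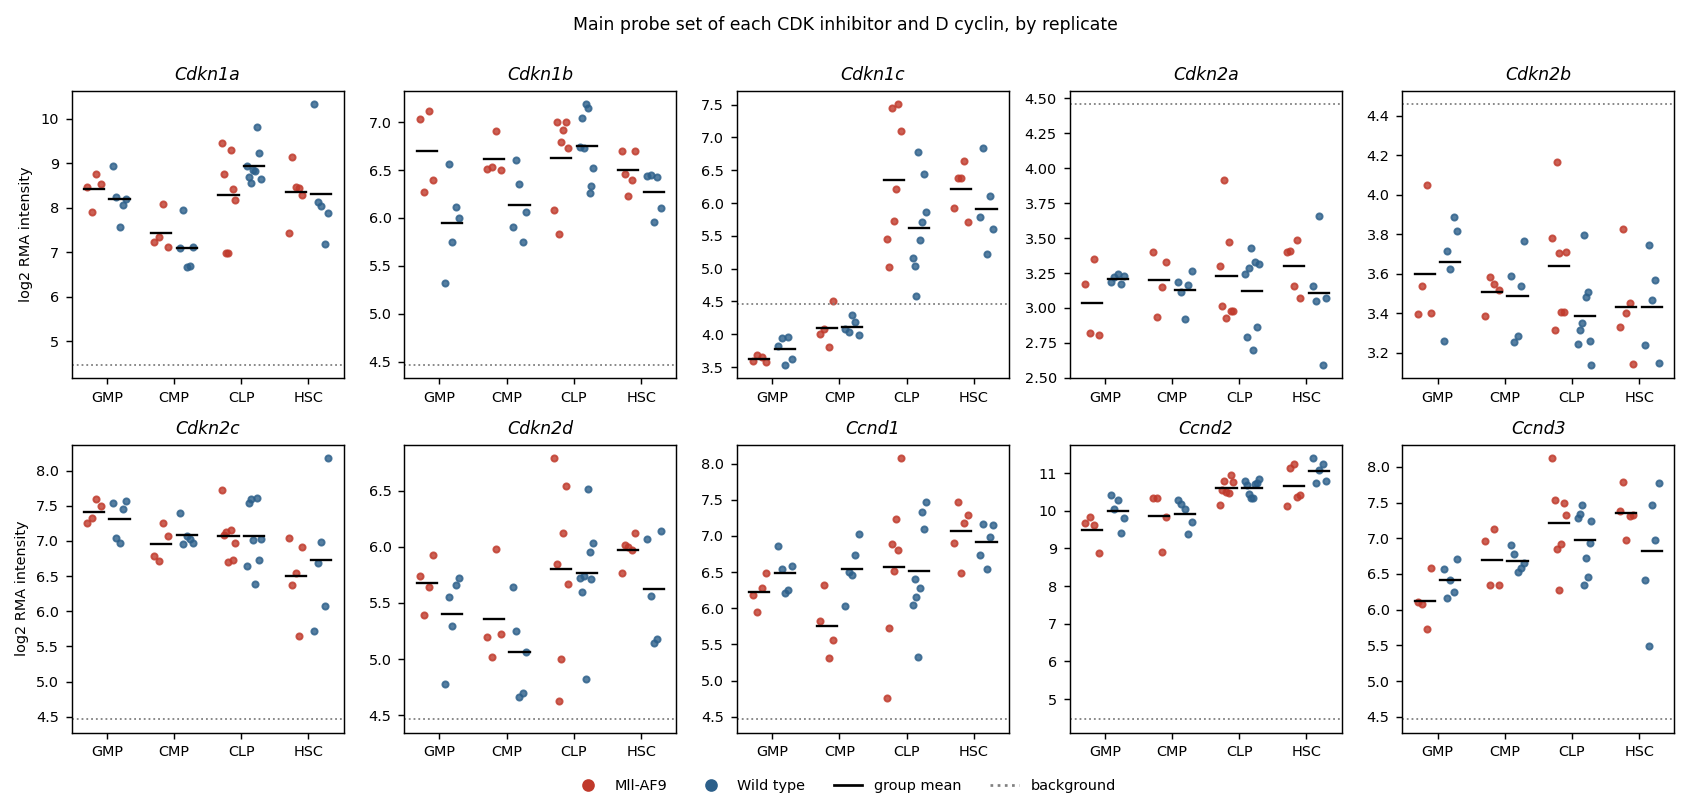
Level of the main probe set of each gene (log2 RMA intensity, y axis, own scale per panel) in every replicate, by population, with Mll-AF9 left of wild type. Bars are group means and the dotted line is background at 4.46. Cdkn1c lies at or under background in GMP and CMP and above it in all CLP and HSC replicates, and Cdkn2a and Cdkn2b lie under it everywhere.

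Cdkn1c, which encodes the inhibitor p57 and is expressed from the maternal allele of an imprinted domain, was at background in GMP and CMP and above it in CLP and HSC. Probe set 1417649_at read 3.60, 3.68, 3.65 and 3.58 in Mll-AF9 GMP and 3.81, 3.94, 3.53, 3.96 and 3.62 in wild type GMP. In CMP it read 4.01, 4.08, 3.80 and 4.51 in Mll-AF9 and 4.08, 4.03, 4.30, 4.18 and 3.99 in wild type. These are background values, since 1 of the 18 GMP and CMP replicates, Mll-AF9 CMP replicate 4, lay above 4.46. In HSC it read 5.93, 6.38, 6.38, 6.64 and 5.71 in Mll-AF9 and 5.79, 6.84, 5.23, 6.10 and 5.60 in wild type. In CLP the lowest, median and highest values were 5.02, 6.21 and 7.51 in Mll-AF9 and 4.58, 5.57 and 6.78 in wild type.

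Every CLP and HSC replicate of Cdkn1c was therefore above background and above every GMP and CMP replicate. In order of the mean the groups ran Mll-AF9 CLP 6.35 ± 1.01, Mll-AF9 HSC 6.21 ± 0.38, wild type HSC 5.91 ± 0.61, wild type CLP 5.63 ± 0.73, wild type CMP 4.12 ± 0.12, Mll-AF9 CMP 4.10 ± 0.30, wild type GMP 3.77 ± 0.19 and Mll-AF9 GMP 3.63 ± 0.05. Neighbours in this order overlapped in their ranges except wild type CLP and wild type CMP. The gene was at least 3.36-fold lower in Mll-AF9 GMP than in Mll-AF9 HSC (difference −2.58 ± 0.38 SE, adjusted p = 8.62e-07) and at least 2.73-fold lower in wild type GMP than in wild type HSC (−2.14 ± 0.36, adjusted p = 7.35e-06). For these lower bounds, replicates of the dimmer group were raised to background.

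CMP gave similar bounds for Cdkn1c, at least 3.33-fold lower than HSC in Mll-AF9 (−2.11 ± 0.38) and at least 2.73-fold lower in wild type (−1.79 ± 0.36). Against CLP, GMP was at least 3.71-fold lower in Mll-AF9 and at least 2.24-fold lower in wild type, and CMP at least 3.68-fold and 2.24-fold lower. All 8 of these calls were kept without any 1 replicate and without the CLP replicates set apart by neutrophil markers or Il7r. Among Mll-AF9 CLP, replicates 1 and 2, the highest for neutrophil markers, were the lowest for Cdkn1c at 5.45 and 5.02, while replicates 3, 6 and 7 read 7.45, 7.51 and 7.10.

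Cdkn1a encodes p21, the inhibitor that p53 is known to induce. Its main probe set 1424638_at read 7.22, 7.35, 8.08 and 7.12 in Mll-AF9 CMP and 7.09, 7.94, 6.68, 6.69 and 7.12 in wild type CMP, the lowest means of the 8 groups. Mll-AF9 HSC read 7.44, 9.14, 8.47, 8.45 and 8.29, and wild type HSC 10.33, 8.13, 8.03, 7.18 and 7.87. In CLP the lowest, median and highest values were 6.98, 8.43 and 9.45 in Mll-AF9, and 8.56, 8.83 and 9.81 in wild type. Spread thus differed between groups, being widest in wild type HSC through replicate 1 and in Mll-AF9 CLP, where replicates 3 and 4 read 6.98 and 6.99. Wild type HSC replicate 1 also had the lowest mean level of 14 mitosis genes among wild type HSC, 6.96 against 7.57 to 8.74, and the part of this in the Cdkn1a value was not tested.

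In Mll-AF9 cells no contrast called Cdkn1a, with differences of −0.85 ± 0.41 for CMP against CLP, −0.91 ± 0.44 for CMP against HSC and 0.97 ± 0.46 for GMP against CMP. In wild type cells Cdkn1a was lower in CMP than in CLP (−1.84 ± 0.38, adjusted p = 0.000238), with no overlap of the replicates and the call kept without any 1 replicate. It was also lower in wild type CMP than in wild type HSC (−1.21 ± 0.42, adjusted p = 0.0340), but this call ended without wild type HSC replicate 1 (−0.70, adjusted p = 0.250) and without wild type CMP replicate 1, 3, 4 or 5 (adjusted p from 0.0575). It also ended with the 3′ minus 5′ control difference as a covariate (−1.11, adjusted p = 0.0689) and with only the groups compared in the fit (adjusted p = 0.0812), and wild type HSC replicate 1 had the largest such difference of its group, 4.35 against 3.09 to 3.70. It was higher in wild type GMP than in wild type CMP (1.10 ± 0.42, adjusted p = 0.0430), a call that ended without any 1 of these replicates but wild type GMP replicate 3 and wild type CMP replicate 2 (adjusted p 0.0576 to 0.128), with that covariate (adjusted p = 0.0639) and with the log offset (adjusted p = 0.0507). The genotype effects of Cdkn1a did not differ at the threshold for any pair of populations. The second probe set, 1421679_a_at, followed the first loosely, with r = 0.50 over 8 group means.

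Cdkn1b encodes p27, the inhibitor that SCF-Skp2 marks for degradation. Main probe set 1434045_at read 7.03, 6.27, 7.12 and 6.39 in Mll-AF9 GMP and 5.32, 6.56, 5.75, 6.11 and 6.00 in wild type GMP. CMP read 6.51, 6.53, 6.91 and 6.51 in Mll-AF9 and 5.90, 6.60, 6.35, 5.75 and 6.06 in wild type. The Mll-AF9 values stood mostly above the wild type ones in both myeloid populations, with overlap through wild type GMP replicate 2 and wild type CMP replicate 2. CLP averaged 6.62 ± 0.47 in Mll-AF9 and 6.75 ± 0.36 in wild type, and HSC 6.50 ± 0.21 in Mll-AF9 and 6.28 ± 0.23 in wild type. Between populations, wild type GMP was lower than wild type CLP (−0.80 ± 0.21, adjusted p = 0.00248), a call kept without any 1 replicate, and wild type CMP was lower than wild type CLP (−0.62 ± 0.21, adjusted p = 0.0322), a call that ended without wild type CMP replicate 1, 4 or 5 or wild type CLP replicate 2, 4 or 5 (adjusted p 0.0586 to 0.122) and with second CMP runs alone (adjusted p = 0.0628). The second Cdkn1b probe set, 1419497_at, had all 8 group means under background, from 2.95 to 3.55.

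The INK4 genes fell into a pair at background and a pair with measured levels. Cdkn2a, the locus of p16 and of the p53 activator Arf, had group means of 3.04 to 3.30, and its highest replicate, Mll-AF9 CLP replicate 3, read 3.92. Cdkn2b, which encodes p15 and lies beside Cdkn2a, had group means of 3.39 to 3.66 and a highest replicate of 4.17, again Mll-AF9 CLP replicate 3. All replicates of both genes were under 4.46, so neither gene has a measured difference, and the array cannot tell a low level from none. Both are known targets of Polycomb repression in stem and progenitor cells.

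Cdkn2c, which encodes p18, was above background in every replicate. Probe set 1416868_at read 7.26, 7.33, 7.59 and 7.49 in Mll-AF9 GMP and 7.54, 7.04, 6.97, 7.46 and 7.57 in wild type GMP, a narrow range for both. HSC were wider, at 7.04, 6.37, 6.54, 5.64 and 6.92 in Mll-AF9 and 5.73, 6.69, 6.99, 6.07 and 8.18 in wild type. CMP averaged 6.96 ± 0.25 in Mll-AF9 and 7.09 ± 0.18 in wild type, and CLP 7.07 ± 0.34 in Mll-AF9 and 7.07 ± 0.47 in wild type. Cdkn2c was higher in Mll-AF9 GMP than in Mll-AF9 HSC (0.91 ± 0.31, adjusted p = 0.0215), with no overlap, and was the one member that rose in a progenitor against HSC. That call ended without Mll-AF9 GMP replicate 3 (adjusted p = 0.0608) or Mll-AF9 HSC replicate 4 (adjusted p = 0.0931), and in wild type the difference was 0.58 ± 0.29 and not called.

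The HSC replicates of Cdkn2c can be read beside the mitosis genes of the same replicates. In Mll-AF9 HSC, replicates 1 and 5 had mitosis means of 8.07 and 8.36 and Cdkn2c at 7.04 and 6.92, while replicate 4 had the lowest of both, 6.73 and 5.64. In wild type HSC, replicates 3 and 5 had mitosis means of 8.70 and 8.74 and Cdkn2c at 6.99 and 8.18, and replicate 1 the lowest of both, 6.96 and 5.73. Mll-AF9 HSC replicates 2 and 3, with mitosis means of 7.25 and 7.02, ran in the opposite order for Cdkn2c. So did wild type HSC replicates 2 and 4, with mitosis means of 7.57 and 7.68. The HSC samples of each genotype thus differed among themselves in both measures, and their part in the contrasts with HSC was not tested. Cdkn2d, which encodes p19Ink4d, ranged over group means of 5.06 to 5.98, highest in Mll-AF9 HSC (5.98 ± 0.13) and lowest in wild type CMP (5.06 ± 0.41), and no contrast called it.

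The sequences upstream of the INK4 starts are shown because these 4 genes share a protein family but split into ones at background and ones with measured levels. RefSeq (GRCm38.p6) gives 250 bases before each start, 5′ to 3′ on the strand of the gene, for 7 of the 10 genes and 11 starts. Capitals mark GC boxes (GGGCGG), E2F motifs (TTTCCCGC, TTTGGCGC, TTTGCCGC or TTTCGCGC) and the CRE (TGACGTCA), each searched on both strands, and no matches overlapped.
Cdkn2a, upstream start of the Arf transcript, chr4:89294620-89294869, minus strand: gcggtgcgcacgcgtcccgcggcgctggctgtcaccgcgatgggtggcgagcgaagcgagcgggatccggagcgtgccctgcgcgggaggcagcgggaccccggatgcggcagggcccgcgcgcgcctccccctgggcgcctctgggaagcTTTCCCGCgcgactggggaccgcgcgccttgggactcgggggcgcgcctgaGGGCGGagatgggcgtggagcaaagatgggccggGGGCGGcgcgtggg
Cdkn2a, downstream start, chr4:89282193-89282442, minus strand: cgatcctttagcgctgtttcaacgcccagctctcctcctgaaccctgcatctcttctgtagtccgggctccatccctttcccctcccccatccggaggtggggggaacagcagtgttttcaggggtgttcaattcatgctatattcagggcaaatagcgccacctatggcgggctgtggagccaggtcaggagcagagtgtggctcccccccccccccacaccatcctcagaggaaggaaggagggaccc
Cdkn2b, chr4:89311033-89311282, minus strand: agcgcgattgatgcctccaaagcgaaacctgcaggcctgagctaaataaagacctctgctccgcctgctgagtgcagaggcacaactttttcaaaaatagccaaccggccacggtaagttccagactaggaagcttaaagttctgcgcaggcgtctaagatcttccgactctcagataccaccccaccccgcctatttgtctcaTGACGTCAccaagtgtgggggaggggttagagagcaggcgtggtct
Cdkn2c, upstream start, chr4:109666757-109667006, minus strand: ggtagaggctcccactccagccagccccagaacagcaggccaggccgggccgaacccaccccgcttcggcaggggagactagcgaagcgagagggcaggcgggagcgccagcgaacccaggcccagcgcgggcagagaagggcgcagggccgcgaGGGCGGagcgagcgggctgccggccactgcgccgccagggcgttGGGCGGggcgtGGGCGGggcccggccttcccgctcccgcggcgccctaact
Cdkn2c, downstream start, chr4:109665373-109665622, minus strand: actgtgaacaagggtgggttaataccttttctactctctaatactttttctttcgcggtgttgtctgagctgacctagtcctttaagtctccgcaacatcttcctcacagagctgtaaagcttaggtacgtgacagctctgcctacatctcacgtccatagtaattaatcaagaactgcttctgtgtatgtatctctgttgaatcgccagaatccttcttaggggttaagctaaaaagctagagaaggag
Cdkn2d, chr9:21291210-21291459, minus strand: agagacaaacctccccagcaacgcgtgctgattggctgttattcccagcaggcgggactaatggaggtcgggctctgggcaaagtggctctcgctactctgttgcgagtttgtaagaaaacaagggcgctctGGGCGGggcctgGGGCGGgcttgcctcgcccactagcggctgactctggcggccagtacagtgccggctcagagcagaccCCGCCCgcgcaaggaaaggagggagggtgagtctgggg

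The Cdkn2c window at its upstream start and the Cdkn2d window each held 3 GC boxes, and the Arf window of Cdkn2a held 2 with 1 E2F motif. The Cdkn2b window held 1 CRE, and the downstream Cdkn2a and Cdkn2c windows none of these motifs. Among the 32851 windows of the same length in the RefSeq table, 32.7% held a GC box, 1.86% an E2F motif and 1.55% a CRE. Base composition differed as well, with 78.4% G and C in the Arf window, 77.2% in the upstream and 42.8% in the downstream Cdkn2c window, 63.6% in the Cdkn2d window, 60.0% in the downstream Cdkn2a window and 53.6% in the Cdkn2b window, against a median of 52.4% over the table. These matches describe letters in a window.

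Ccnd1, the D cyclin that many growth signals induce, was read by 3 probe sets, of which 2 had their highest group means in HSC and the third, 1448698_at, in wild type GMP. Probe set 1417420_at read 4.50, 4.27, 4.42 and 4.66 in Mll-AF9 GMP, at the background level, and 4.98, 4.82, 5.24, 4.85 and 4.98 in wild type GMP. It read 4.43, 5.33, 4.52 and 4.77 in Mll-AF9 CMP and 4.94, 5.33, 5.25, 5.93 and 5.64 in wild type CMP. In HSC it read 6.72, 6.53, 6.57, 6.39 and 6.06 in Mll-AF9 and 5.83, 7.24, 6.77, 5.80 and 6.84 in wild type. All HSC replicates were above all GMP replicates of either genotype. The difference of GMP from HSC was −1.99 ± 0.37 in Mll-AF9 (adjusted p = 5.31e-05) and −1.52 ± 0.35 in wild type (adjusted p = 0.000673), both kept without any 1 replicate.

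The same Ccnd1 probe set was lower in CMP than in HSC. The difference was −1.69 ± 0.37 in Mll-AF9 (adjusted p = 0.000799) and −1.08 ± 0.35 in wild type (adjusted p = 0.0236), and the wild type call ended without wild type CMP replicate 1 or 3 or wild type HSC replicate 2, 3 or 5 (adjusted p 0.0510 to 0.0919) and with second CMP runs alone (adjusted p = 0.105). In CLP the levels spread from 4.56 to 7.32 in Mll-AF9 and from 4.67 to 6.52 in wild type, overlapping both HSC and the myeloid progenitors. Mll-AF9 GMP was lower than Mll-AF9 CLP (−1.30 ± 0.35, adjusted p = 0.00405), but without the CLP replicates with Il7r below 9 the difference was −0.77 (adjusted p = 0.0774, against 8.98e-05 to 0.0774 over all alternatives). Mll-AF9 CMP was lower than Mll-AF9 CLP as well (−1.0 ± 0.35, adjusted p = 0.0406), a call that ended without Mll-AF9 CMP replicate 1, 3 or 4 or Mll-AF9 CLP replicate 4, 5 or 7 (adjusted p 0.0762 to 0.133). It also ended without the CLP replicates with Il7r below 9 (−0.47, adjusted p = 0.359), with second CMP runs alone (adjusted p = 0.104), with only the groups compared in the fit (adjusted p = 0.177), with quantile normalisation (adjusted p = 0.0510) and with the log offset (−0.74, adjusted p = 0.0533). A replicate block in the fit ended it too (−0.83, adjusted p = 0.0870).

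Main Ccnd1 probe set 1417419_at read 5.82, 6.33, 5.31 and 5.56 in Mll-AF9 CMP and 6.02, 6.50, 6.46, 6.73 and 7.03 in wild type CMP. HSC averaged 7.06 ± 0.38 in Mll-AF9 and 6.92 ± 0.27 in wild type, and CLP ran from 4.76 to 8.08 in Mll-AF9 and from 5.32 to 7.47 in wild type. Mll-AF9 CMP was lower than Mll-AF9 HSC (−1.31 ± 0.39, adjusted p = 0.0138), with no overlap, but the call ended without Mll-AF9 CMP replicate 3 (adjusted p = 0.0579). The third probe set, 1448698_at, was lower in Mll-AF9 CMP than in Mll-AF9 CLP (−0.86 ± 0.21, adjusted p = 0.00263), with no overlap and the call kept without any 1 replicate. It was also lower in Mll-AF9 CMP than in Mll-AF9 HSC (−0.71 ± 0.22, adjusted p = 0.0212), until Mll-AF9 CMP replicate 1 or 4 or Mll-AF9 HSC replicate 4 was left out (adjusted p 0.0614 to 0.0653), or second CMP runs were used alone (adjusted p = 0.0728). In wild type, where GMP stood above CMP for this probe set (0.56 ± 0.21, adjusted p = 0.0428), the call ended without 1 of 7 replicates, wild type GMP replicate 1, 2, 3 or 5 or wild type CMP replicate 1, 2 or 3 (adjusted p 0.0538 to 0.148), with second CMP runs alone (0.28, adjusted p = 0.357) and with the 3′ minus 5′ covariate (adjusted p = 0.0565). Over 8 group means the 2 other probe sets correlated with the main one at r = 0.63 and 0.87.

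Ccnd2, the D cyclin known to act in blood and lymphoid progenitors, was read by 7 probe sets that do not all tell the same story. Main probe set 1455956_x_at read 9.68, 9.83, 9.62 and 8.89 in Mll-AF9 GMP and 10.43, 10.04, 10.28, 9.42 and 9.82 in wild type GMP. HSC read 10.12, 11.13, 11.24, 10.37 and 10.41 in Mll-AF9 and 11.40, 10.74, 11.09, 11.25 and 10.80 in wild type. Each genotype's HSC replicates lay above all of its GMP replicates. The difference of GMP from HSC was −1.15 ± 0.25 in Mll-AF9 (adjusted p = 0.00031) and −1.06 ± 0.23 in wild type (adjusted p = 0.00036), and both were kept without any 1 replicate.

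For CMP, the main Ccnd2 probe set read 10.33, 10.34, 8.91 and 9.83 in Mll-AF9 and 10.28, 10.18, 10.04, 9.38 and 9.71 in wild type. The wild type difference from HSC, −1.14 ± 0.23 (adjusted p = 0.000277), was kept without any 1 replicate. The Mll-AF9 one, −0.80 ± 0.25 (adjusted p = 0.0174), ended without Mll-AF9 CMP replicate 3 (−0.49, adjusted p = 0.196) or Mll-AF9 HSC replicate 2 or 3 (adjusted p from 0.0650) and with only the groups compared in the fit (adjusted p = 0.117). CLP averaged 10.60 ± 0.26 in Mll-AF9 and 10.62 ± 0.21 in wild type. Against CLP, GMP was lower by a difference of −1.09 ± 0.23 in Mll-AF9, kept without any 1 replicate, and of −0.62 ± 0.21 in wild type. The wild type call ended without wild type GMP replicate 4 (adjusted p = 0.0875) and with a replicate block in the fit (−0.50, adjusted p = 0.0557). CMP was lower than CLP by −0.74 ± 0.23 in Mll-AF9, which ended without Mll-AF9 CMP replicate 3 or 4 (adjusted p 0.255 and 0.0526), and by −0.69 ± 0.21 in wild type, which ended without wild type CMP replicate 4 (adjusted p = 0.0767). Without the CLP replicates with Il7r below 9, the calls of wild type GMP and CMP and of Mll-AF9 CMP against CLP also ended (adjusted p 0.0516 to 0.106), and the last of these ended with the 3′ minus 5′ covariate too (−0.60, adjusted p = 0.133) and with only the groups compared in the fit (adjusted p = 0.0558). The suffix of this probe set marks probes that may also match other transcripts.

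Ccnd2 probe set 1434745_at gave the steadiest picture. Its GMP values were 8.32, 8.51, 8.52 and 8.44 in Mll-AF9 and 9.36, 8.91, 9.02, 8.77 and 8.92 in wild type, the only Ccnd2 probe set whose genotypes did not overlap in GMP. CMP averaged 9.0 ± 0.25 in Mll-AF9 and 8.98 ± 0.33 in wild type. CLP and HSC were higher, with CLP at 9.71 ± 0.21 in Mll-AF9 and 9.82 ± 0.26 in wild type, and HSC at 9.76 ± 0.34 in Mll-AF9 and 9.75 ± 0.33 in wild type. GMP and CMP were called lower than HSC and than CLP in both genotypes, 8 calls in all, from −1.31 ± 0.19 (Mll-AF9 GMP against HSC, adjusted p = 5.26e-07) to −0.71 ± 0.17 (Mll-AF9 CMP against CLP, adjusted p = 0.0028), and all were kept without any 1 replicate. Mll-AF9 GMP was also lower than Mll-AF9 CMP (−0.55 ± 0.20, adjusted p = 0.0405), but that call ended without any 1 of the 4 Mll-AF9 GMP replicates or without Mll-AF9 CMP replicate 1, 2 or 4 (adjusted p 0.0524 to 0.162), with second CMP runs alone (−0.33, adjusted p = 0.292) and with the 3′ minus 5′ covariate (adjusted p = 0.0594).

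Among the other Ccnd2 probe sets, 1430127_a_at was lowest in GMP, at 6.29 ± 0.34 in Mll-AF9 and 6.77 ± 0.52 in wild type, with CMP, CLP and HSC means of 7.45 to 7.88. GMP was called lower than each other population in both genotypes, and in Mll-AF9 the difference from CMP was −1.16 ± 0.26 (adjusted p = 0.000892). The wild type difference from CMP (−0.73 ± 0.23) was the one of these calls that was lost, without wild type GMP replicate 1 (adjusted p = 0.0858) and with second CMP runs alone (−0.43, adjusted p = 0.210). Probe set 1416122_at was lower in Mll-AF9 GMP (8.63 ± 0.38) than in Mll-AF9 HSC (9.86 ± 0.74) by a difference of −1.23 ± 0.27 (adjusted p = 0.000384), kept without any 1 replicate. Its 3 further calls, Mll-AF9 GMP against CLP and CMP against HSC in both genotypes, lay between −0.81 and −0.73 and each ended without 1 replicate or more. That for Mll-AF9 GMP against CLP ended without Mll-AF9 GMP replicate 4, that for Mll-AF9 CMP against HSC without Mll-AF9 CMP replicate 3 or 4, Mll-AF9 HSC replicate 2, 3 or 4 or wild type GMP replicate 5, and that for wild type CMP against HSC without wild type CMP replicate 3, 4 or 5 or wild type HSC replicate 1, 3, 4 or 5, with adjusted p between 0.0501 and 0.228. With first CMP runs alone, the differences of CMP from HSC were −0.46 in both genotypes (adjusted p = 0.246 in Mll-AF9 and 0.214 in wild type). The Mll-AF9 one, whose adjusted p was 0.0454, also ended with unnamed probe sets included, with only the groups compared in the fit and under both subsets of CLP (adjusted p 0.0511 to 0.177).

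The remaining Ccnd2 probe sets did not share this pattern. Over 8 group means, 1448229_s_at, 1416123_at and 1416124_at correlated with the main one at r = 0.25, −0.41 and −0.73, against 0.93, 0.95 and 0.79 for the other three. For 1448229_s_at, Mll-AF9 CLP replicates 1 and 2 read 6.60 and 7.00 and the other Mll-AF9 CLP replicates 8.43 to 8.74, and for 1416123_at the same replicates read 4.04 and 4.32. They were the Mll-AF9 CLP replicates with the highest neutrophil markers (10.94 and 12.21), and the part of these in the values was not tested. Wild type GMP replicate 1 read 3.77 for 1416123_at, against 6.10 to 6.99 in the other wild type GMP. That replicate also had the largest 3′ minus 5′ difference of control probe sets among wild type GMP (4.70), a sign of shorter labelled RNA, whose part in the value was not tested. Their only call, wild type GMP above CMP for 1448229_s_at (0.88 ± 0.32, adjusted p = 0.0331), ended without any 1 of 8 of the 10 replicates compared, all but wild type GMP replicate 1 and wild type CMP replicate 3 (adjusted p 0.0525 to 0.103), and with first CMP runs alone (adjusted p = 0.0594).

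**Figure D2:**
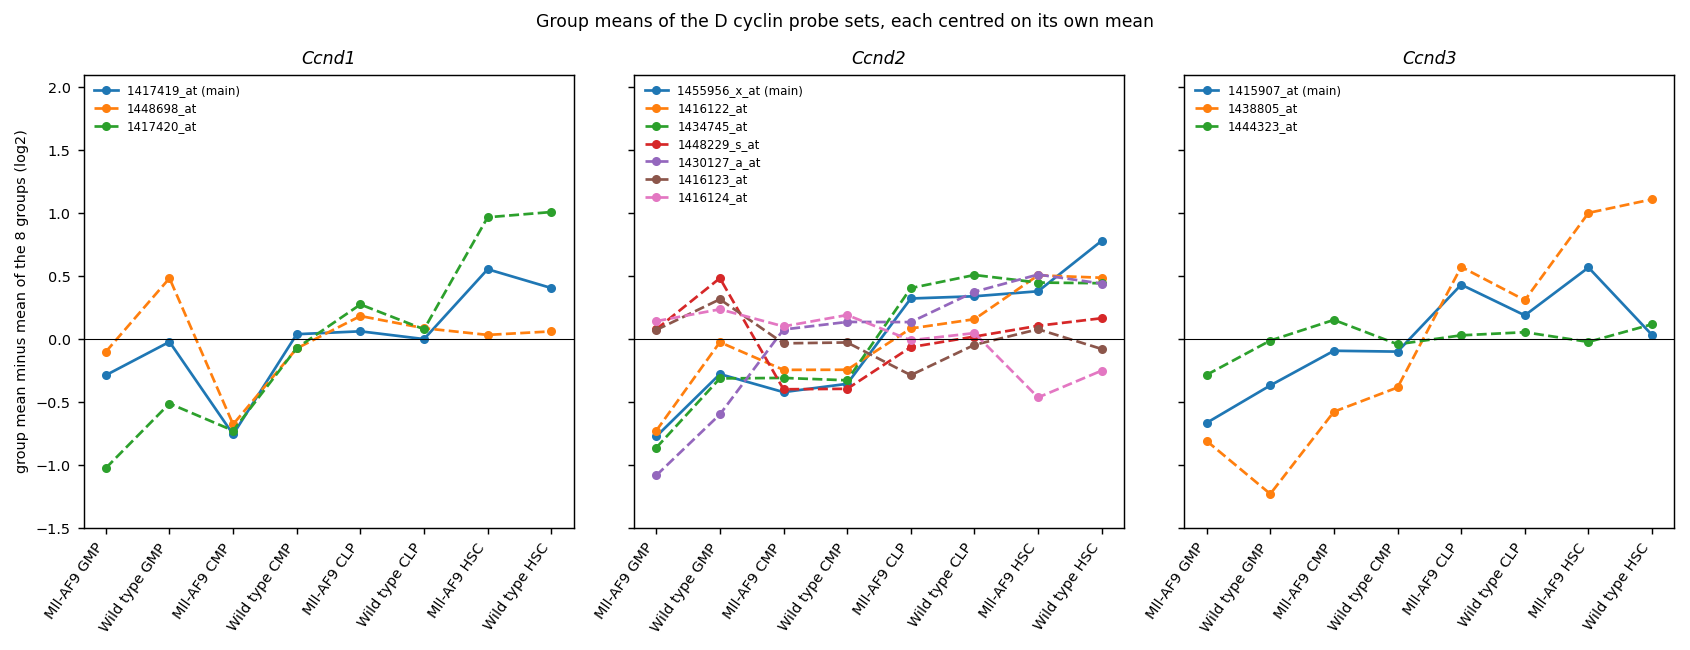
Group means of every D cyclin probe set (log2 RMA intensity minus the mean of the probe set over the 8 groups, y axis), by group on the x axis with Mll-AF9 left of wild type for each population. Solid lines are main probe sets. Ccnd2 probe sets 1455956_x_at, 1434745_at, 1416122_at and 1430127_a_at lie lowest in Mll-AF9 GMP, and 1448229_s_at, 1416123_at and 1416124_at do not follow them.

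Ccnd3, the D cyclin known for lymphoid cells, was read by 3 probe sets. Probe set 1438805_at read 4.79, 5.32, 5.01 and 4.84 in Mll-AF9 GMP and 4.75, 4.13, 4.49, 4.58 and 4.89 in wild type GMP. HSC read 5.59, 7.19, 6.48, 6.84 and 7.90 in Mll-AF9 and 7.84, 6.78, 6.72, 7.63 and 5.57 in wild type. All HSC replicates stood above all GMP replicates. The GMP level was 3.51-fold lower than that of HSC in Mll-AF9 (−1.81 ± 0.37, adjusted p = 0.000165) and 5.06-fold lower in wild type (−2.34 ± 0.35, adjusted p = 9.13e-07). The wild type GMP mean, 4.57, was near background, so the size of differences from it is uncertain for this probe set.

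CMP averaged 5.22 ± 0.29 in Mll-AF9 and 5.42 ± 0.20 in wild type for this Ccnd3 probe set, lower than HSC by differences of −1.58 ± 0.37 in Mll-AF9 and −1.49 ± 0.35 in wild type. CLP averaged 6.37 ± 0.31 in Mll-AF9 and 6.11 ± 0.74 in wild type, and GMP was lower than CLP by differences of −1.38 ± 0.34 in Mll-AF9 and −1.54 ± 0.31 in wild type. These calls were kept without any 1 replicate, while that of Mll-AF9 CMP against Mll-AF9 CLP (−1.15 ± 0.34, adjusted p = 0.0152) ended without Mll-AF9 CMP replicate 3 or 4 (adjusted p 0.0525 to 0.0640). With the 3′ minus 5′ control difference as a covariate, the calls of Mll-AF9 GMP and CMP against CLP ended (adjusted p 0.101 and 0.165).

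Main Ccnd3 probe set 1415907_at read 6.11, 6.07, 5.73 and 6.58 in Mll-AF9 GMP, while wild type GMP averaged 6.42 ± 0.22. HSC read 7.38, 7.79, 6.98, 7.31 and 7.32 in Mll-AF9 and 6.41, 5.48, 7.47, 6.97 and 7.77 in wild type, where the spread reached down into the GMP range. Mll-AF9 GMP was lower than Mll-AF9 HSC (−1.23 ± 0.32, adjusted p = 0.0024) and than Mll-AF9 CLP (−1.10 ± 0.30, adjusted p = 0.00424), and both calls were kept without any 1 replicate. In wild type the difference of GMP from HSC was −0.40 ± 0.30 and not called. The test of the difference between the genotypes in this contrast gave −0.83 ± 0.43 (95% interval −1.71 to 0.04, adjusted p = 0.731). The third probe set, 1444323_at, was called in no contrast.

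**Figure D3:**
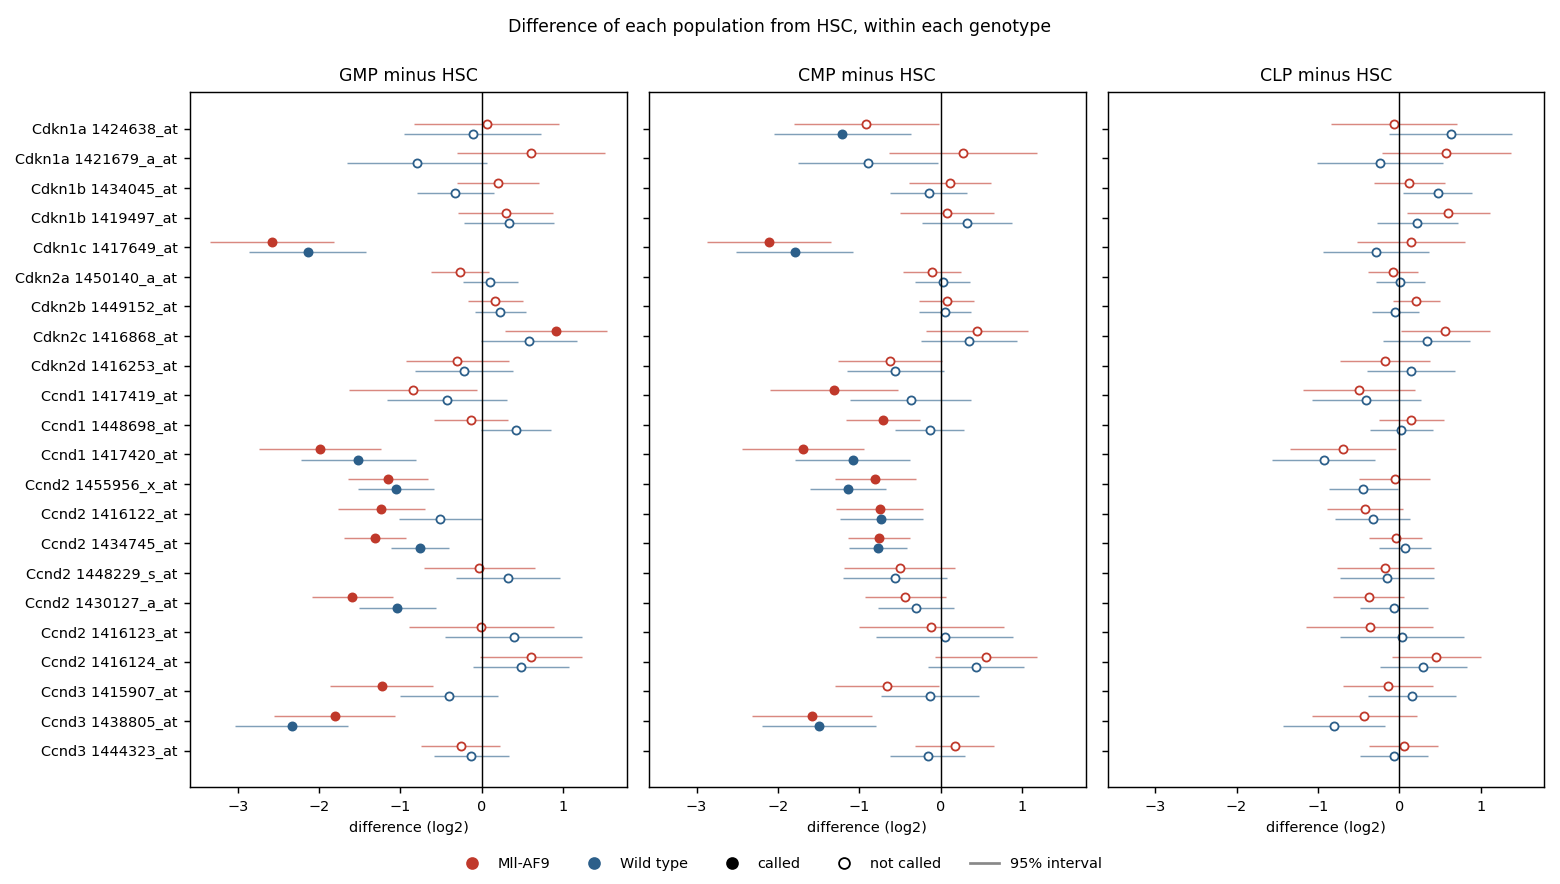
Difference of GMP, CMP and CLP from HSC within each genotype (log2, x axis) for all 22 probe sets, Mll-AF9 above wild type in each pair. Lines are 95% limma intervals and filled points are called. Filled points lie left of 0 for Cdkn1c, the D cyclins and 1 Cdkn1a probe set and right of 0 for Cdkn2c alone, and the panel of CLP minus HSC has none.

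No member passed the threshold between the genotypes. In limma, 0 of 22 probe sets passed it in GMP (0.155% of all probe sets were called), 0 for CMP (0.229%), 0 for CLP (0.246%) and 0 for HSC (0.0114%), and the count stayed 0 in every population under each alternative run. At an unadjusted p under 0.05 7 passed in GMP and 5 in CMP, while CLP had 0 and HSC 1. With so few probe sets called on the array, a count of 0 among 22 is near the background. The median difference of the 22 probe sets was −0.25 in GMP, −0.01 in both CMP and CLP and 0.00 in HSC, against −0.02, −0.00, 0.04 and 0.01 over all probe sets.

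In GMP, the D cyclins made up most of the unadjusted differences, but they also hold most of the 22 probe sets. Ccnd1 1417420_at differed by −0.51 ± 0.15 (95% interval −0.84 to −0.19, adjusted p = 0.319), with 2 of its 4 Mll-AF9 replicates under background, so the size is uncertain, and Ccnd2 1434745_at by −0.55 ± 0.16 (−0.89 to −0.21, adjusted p = 0.313). These were the 2 of 22 probe sets whose genotypes did not overlap in GMP, where 3.64% of all probe sets did not, and none of the 22 was free of overlap in CMP (2.38%), CLP (0.195%) or HSC (1.20%). Other Ccnd2 probe sets differed by −0.70 ± 0.22 (1416122_at, adjusted p = 0.370) and −0.50 ± 0.23 (1455956_x_at, adjusted p = 0.576), and Ccnd1 1448698_at by −0.58 ± 0.20 (adjusted p = 0.403). Ccnd3 1438805_at had the opposite sign (0.42 ± 0.18, adjusted p = 0.550), so the D cyclin probe sets did not all share 1 direction. Its wild type GMP level was near background, so the size of this difference is uncertain. Probe sets of 1 gene share its transcript and are not independent.

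In CMP, all 3 Ccnd1 probe sets had lower means in Mll-AF9. The differences were −0.80 ± 0.22 for 1417419_at (95% interval −1.27 to −0.32, adjusted p = 0.298), −0.60 ± 0.16 for 1448698_at (−0.94 to −0.26, adjusted p = 0.253) and −0.66 ± 0.21 for 1417420_at (−1.11 to −0.20, adjusted p = 0.468). For 1448698_at the replicates read 5.20, 5.47, 5.32 and 5.22 in Mll-AF9 and 5.40, 5.84, 5.97, 6.15 and 6.16 in wild type. The overlap thus lies between Mll-AF9 CMP replicate 2 and wild type CMP replicate 1, and the ranges would be apart without either one. Over the alternatives the lowest adjusted p for a Ccnd1 probe set in CMP was 0.0559. The other D cyclins differed little in CMP, with Ccnd2 1434745_at at 9.0 ± 0.25 in Mll-AF9 and 8.98 ± 0.33 in wild type and Ccnd3 1415907_at at 6.70 ± 0.41 in Mll-AF9 and 6.69 ± 0.15 in wild type.

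Of the inhibitors, Cdkn1b 1434045_at had higher means in Mll-AF9 GMP (0.75 ± 0.25, 95% interval 0.21 to 1.29, adjusted p = 0.404) and Mll-AF9 CMP (0.48 ± 0.18, 0.10 to 0.86, adjusted p = 0.619). Its second probe set, under background in both, had the opposite sign in CMP (−0.47 ± 0.16), which is no measured difference. Cdkn1c differed by 0.73 ± 0.40 in CLP (−0.10 to 1.56, adjusted p = 0.632) and by 0.30 ± 0.31 in HSC. The Cdkn1c difference in CLP was 1.19 without the replicates high in neutrophil markers and 0.25 without those with Il7r below 9 (adjusted p 0.420 and 0.901), and its sign turned to −0.10 with the Y-linked level as a covariate (adjusted p = 1.00). Cdkn1a 1424638_at differed by −0.65 ± 0.34 in CLP (adjusted p = 0.616), and lay between −0.95 (without the replicates with Il7r below 9) and −0.31 (with the 3′ minus 5′ covariate) over the alternatives.

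Cdkn1a 1421679_a_at was the one probe set with an unadjusted p under 0.05 in HSC. It read 4.80, 3.74, 5.93, 5.34 and 5.49 in Mll-AF9 and 7.78, 6.31, 5.90, 5.39 and 5.77 in wild type. The ranges overlapped, and wild type HSC replicate 1 was again the highest. The difference was −1.17 ± 0.46 (95% interval −2.15 to −0.19, adjusted p = 0.759), while the main Cdkn1a probe set differed by 0.05, with means of 8.36 ± 0.61 in Mll-AF9 and 8.31 ± 1.19 in wild type.

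The genotype effect was also compared between populations. Of 22 probe sets, 0 were called in limma for any of the 6 pairs of populations, where 0.00858% of all probe sets were called for GMP against HSC, 0.126% for CLP against HSC, 0.0601% for GMP against CLP, 0.0515% for CMP against CLP and 0% for both CMP against HSC and GMP against CMP. At an unadjusted p under 0.05 there were 2 for GMP against HSC, 2 for GMP against CLP, 1 for GMP against CMP, 1 for CMP against CLP and 0 for the other two. These counts, too, have no share of all probe sets beside them. The smallest unadjusted p belonged to Cdkn1b, whose genotype effect was more positive in GMP than in CLP by 0.88 ± 0.31 (95% interval 0.24 to 1.51, adjusted p = 0.414). For Cdkn1c, whose GMP and CMP values lay at background, the effects in CLP and HSC, where it was measured, differed by 0.43 ± 0.46 (−0.50 to 1.36, adjusted p = 0.810). The intervals leave room for differences of over 1 unit, so the data do not show that the genotypes act alike across populations.

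**Figure D4:**
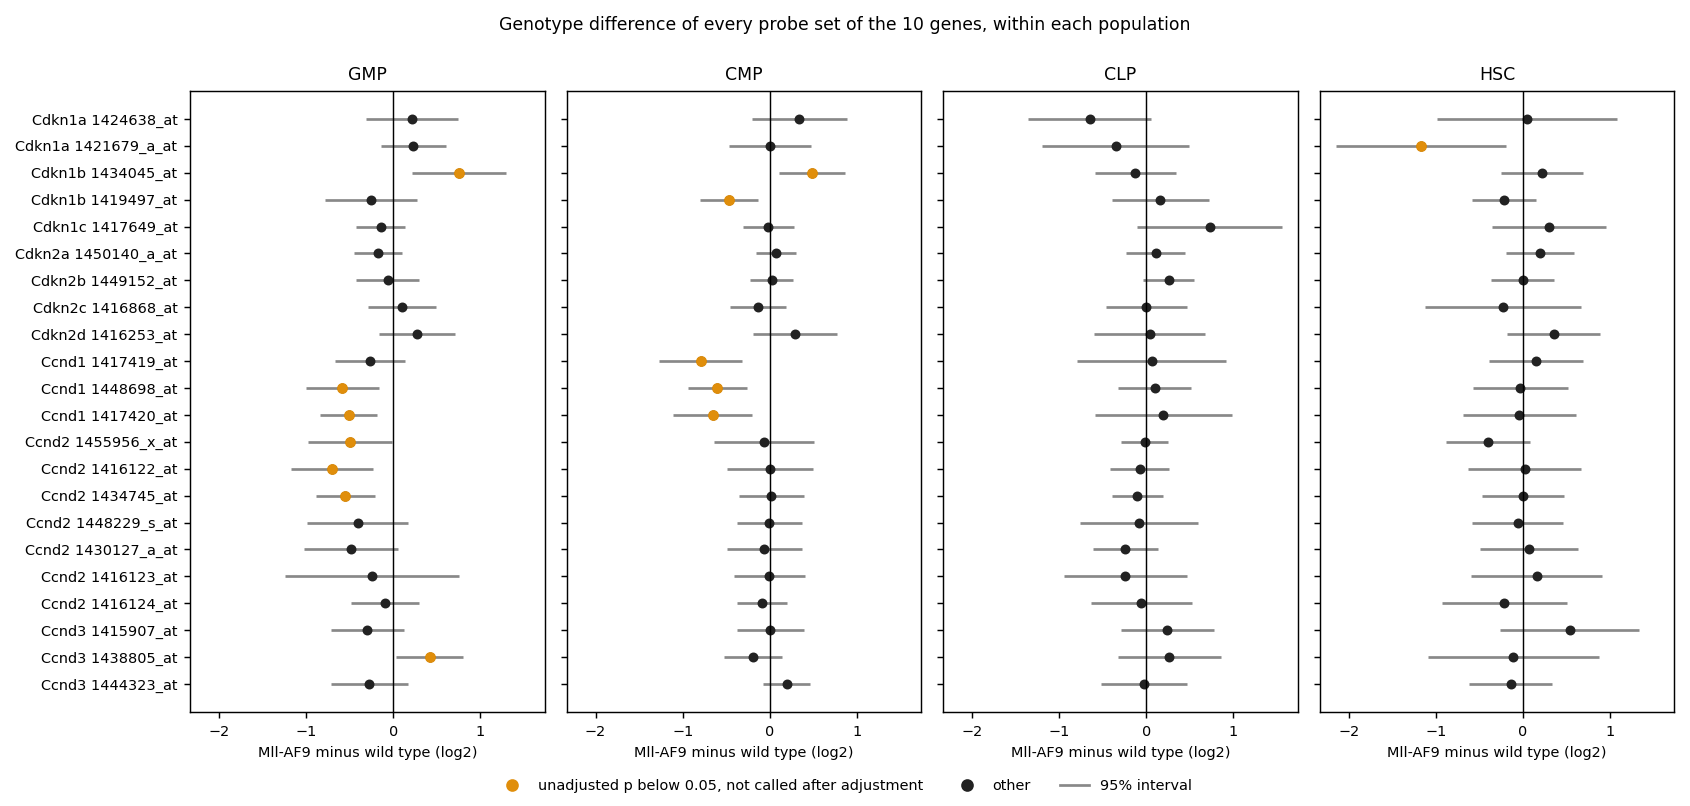
Difference of Mll-AF9 from wild type (log2, x axis) for all 22 probe sets in each population, with 95% limma intervals. Orange points have an unadjusted p under 0.05 and none was called after adjustment. The orange points are D cyclins and Cdkn1b in GMP, Ccnd1 and Cdkn1b in CMP and 1 Cdkn1a probe set in HSC.

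For members that spanned at least 1 unit over the 8 groups, the genes of most similar pattern were taken by Pearson correlation of 8 group means among 6091 genes. Cdkn1c was followed most closely by Gimap1 (r = 0.993), Hdac11 (0.992) and Slc12a7 (0.992). Cdkn1a was followed by Crispld2, Dync2li1 and Tram2 (0.984 to 0.986), and Ccnd1 by Rab11fip5 (0.930), Emid1 (0.897) and Gkap1 (0.887). The closest to Ccnd2 were P3h3 (0.997), Lzts2 (0.981) and Abl1 (0.979), and to Ccnd3 Pdlim7 (0.989), Foxj2 (0.982) and 2900052L18Rik (0.972). With 8 points from shared arrays and so many genes, high values of r arise readily, and they are given as descriptions.

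The rest of the G1 pathway gave calls in both directions. The share of all probe sets called, against which these counts stand, was 30.4% in Mll-AF9 and 35.0% in wild type for GMP against HSC, and 17.2% and 19.2% for CMP against HSC. Of 10 kinases and E and A cyclins that act with the members, Mll-AF9 GMP against HSC gave 2 higher and 2 lower, and wild type GMP against HSC 5 higher and 2 lower. Cdk6, a partner of the D cyclins, was lower in GMP than in HSC by differences of −0.95 ± 0.21 in Mll-AF9 and −1.48 ± 0.20 in wild type. Cdk4, the other partner, differed by 0.55 ± 0.29 in Mll-AF9, which was not called, and was higher in wild type (1.15 ± 0.27). Ccna2, the S phase cyclin, was 1.53 ± 0.26 higher in Mll-AF9 and 1.11 ± 0.25 higher in wild type. CMP against HSC gave 4 higher of 10 in Mll-AF9 and 3 in wild type, none lower, with Ccne1, the cyclin E that activates Cdk2, 1.54 ± 0.39 higher in Mll-AF9 and 2.17 ± 0.37 higher in wild type.

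The mitosis genes that were called against HSC were all higher in GMP and CMP. Of 14 mitosis genes, 10 were higher in GMP than in HSC in Mll-AF9 and 6 in wild type, and 13 were higher in CMP in Mll-AF9 and 5 in wild type, with none lower. Birc5, which acts in chromosome segregation, was 2.31 ± 0.31 higher in Mll-AF9 GMP and 1.79 ± 0.29 higher in wild type GMP than in HSC. The median difference of the mitosis genes in GMP against HSC was 1.42 in Mll-AF9 and 0.82 in wild type, against 0.08 and 0.11 over all probe sets. Against CLP, GMP gave 7 higher of 14 in Mll-AF9 and 2 higher and 1 lower in wild type, and CMP gave 5 higher in Mll-AF9 and 0 in wild type. Of all probe sets, 27.4% in Mll-AF9 and 39.8% in wild type were called for GMP against CLP. For CMP against CLP the shares were 16.4% and 20.2%, and both wild type counts lay under their shares. Against HSC, S phase genes gave 7 higher and 1 lower of 16 in Mll-AF9 GMP and 7 higher and 2 lower in wild type GMP. The lower ones included Mcm5, a helicase subunit (−1.70 ± 0.20 and −1.44 ± 0.19). Between genotypes, Kif11, a spindle motor, was the one gene of these pathway lists that was called, at −0.92 ± 0.19 in CLP (adjusted p = 0.0396). In that contrast 0.246% of all probe sets were called. No alternative fit is given for Kif11, and the limits named for the CLP samples apply to it.

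The pocket proteins and E2F factors, which the kinases act on, were split in GMP against HSC, with 4 higher and 2 lower of 13 in Mll-AF9 and 3 higher and 3 lower in wild type. E2f1 was 0.69 ± 0.20 higher in Mll-AF9 and 1.24 ± 0.18 higher in wild type. E2f3 was lower (−1.56 ± 0.28 in Mll-AF9, −2.01 ± 0.27 in wild type), and so was the E2F partner Tfdp2 (−1.70 ± 0.25 in Mll-AF9, −2.09 ± 0.24 in wild type). CMP gave 5 higher in Mll-AF9 and 4 in wild type, with Rb1, the retinoblastoma gene, 1.35 ± 0.27 higher in Mll-AF9 and 1.32 ± 0.26 higher in wild type. Genes of the FoxO and TGF-beta pathways, known inducers of CIP/KIP inhibitors, gave more lower than higher calls. GMP against HSC gave 1 higher and 6 lower of 11 in Mll-AF9 and 1 higher and 5 lower in wild type, led by the signal transducer Smad4 (−2.22 ± 0.29 in Mll-AF9, −2.31 ± 0.27 in wild type), the receptor Tgfbr2 (−2.13 ± 0.26 and −1.90 ± 0.24) and the factor Foxo3 (−1.40 ± 0.24 and −1.79 ± 0.23). The ligand gene Tgfb1 was the one that rose, by 1.81 ± 0.40 in Mll-AF9 and 1.69 ± 0.38 in wild type.

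Among 14 measured genes of the p53 response, 7 were lower and 1 higher in GMP than in HSC in Mll-AF9 and 5 lower in wild type, among them Trp53inp1 (−2.23 ± 0.30 and −3.90 ± 0.28) and Sesn1 (−2.09 ± 0.22 and −2.45 ± 0.21). Of 8 SCF ligase genes, 1 was higher and 2 lower in both genotypes, with Skp2, the receptor for p27, at −1.08 ± 0.39 in Mll-AF9 and −1.58 ± 0.37 in wild type. Of 12 Polycomb genes, 1 was higher and 3 lower in Mll-AF9 and 4 lower in wild type, with Suz12 at −1.72 ± 0.32 and −1.80 ± 0.31. The SCF and Polycomb counts, and the p53 count in wild type, are near the shares of all probe sets called, 30.4% in Mll-AF9 and 35.0% in wild type. Of 9 measured genes in or near the imprinted domain around Cdkn1c, 1 was higher and 3 lower in both genotypes, to be set beside the same shares of all probe sets. Phlda2, which is also imprinted, differed by −1.28 ± 0.32 in Mll-AF9 and −0.81 ± 0.30 in wild type, with GMP means under background at 4.29 and 4.11, and Cd81 by −1.31 ± 0.13 and −0.97 ± 0.13. In CMP, where Cdkn1c was at background as well, 0 of the 9 were called in Mll-AF9 and 1 was higher in wild type, Phlda2 (0.87 ± 0.30).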

How the data were processed

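RNA intensities were deposited as 1 value per probe set and array. The authors summarised them by RMA, which corrects background, normalises quantiles and combines probes, per the submitters' processing notes, with version and grouping of arrays not given there. The deposited intensity values ran from 2.57 to 23327 and were linear, so log2 was taken first. Arrays carry no depth. Repeat runs of 8 CMP replicates were averaged, which left 43 replicates of 51 arrays.

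Of 45101 probe sets, 64 controls and 10092 with several genes or none were left out, and symbols of 34741 of the other 34945 were updated by gene identifier. Groups followed the sample titles, and values of replicates of 1 group were nowhere identical. Tests were those of limma 3.58.1 run under R 4.3.3 (lmFit and a trended eBayes). Genotypes were set against each other in a fit per population, and populations and differences of the genotype effect in 1 model of 8 group means, with Benjamini-Hochberg adjustment over 34945 probe sets and no block. Errors after ± are SD for means and limma's SE for differences. The steps were tested on simulated data.

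The members and lists were chosen with earlier results of these data known. All probe sets of the 10 genes are accounted for, each gene's main probe set being the one with the highest mean over 43 replicates. Up to 4 called genes per pathway list and comparison, by smallest p, could be named, and values are printed for some of these. The genes Ccnb1, Trp53, Bax and H19 had no probe set of their own. Lists of markers for macrophages, B cells, T and NK cells, red cells and stroma were run as well. Group means of their level were near background for red cells (3.23 to 3.62), macrophages (3.44 to 4.51) and stroma (4.10 to 4.55), though single replicates reached 4.83 for red cells in Mll-AF9 CLP, 6.92 for macrophages in wild type CLP and 5.77 for stroma in wild type CMP. They were 3.93 to 5.13 for B cells and 4.53 to 5.84 for T and NK cells, highest in Mll-AF9 CLP. Markers of the sorted type averaged 12.75 and 12.67 in Mll-AF9 and wild type GMP, 9.42 and 9.49 in CMP, 9.13 and 9.68 in CLP, and 8.15 and 7.66 in HSC. Kmt2a and Mllt3 probe sets were not used as a check, since the array does not tell the fusion from its parts.

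Alternatives were another normalisation, an offset of 16 before log2, filters, 1 probe set per gene, covariates, a replicate block, single CMP runs, each replicate left out and 2 subsets of CLP chosen after the data were seen. Sequences came from RefSeq tables, which hold none for Cdkn1c, Ccnd1 and Ccnd2.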

Additional observations from a re-analysis of the deposited data

Results flagged for a closer look

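In 2 of 80 groups of values of the main probe sets, 1 replicate stood apart from the rest of its group by Dixon's 95% criterion, where chance alone gives about 1 in 20. Cdkn1b in Mll-AF9 CMP replicate 3 read 6.91, while the other 3 replicates lay between 6.51 and 6.53, a gap of 0.940 of the whole range against a critical value of 0.829. Cdkn2c in wild type CMP replicate 1 read 7.40, while the other 4 replicates lay between 6.96 and 7.07, a gap of 0.755 of the range against a critical value of 0.710.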

How the results depend on the processing

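Counts of calls between genotypes, and of differences of the genotype effect, were 0 under every alternative. Between populations there were 33 calls in Mll-AF9 and 28 in wild type. With 1 probe set per gene, which tests fewer probe sets, these became 12 and 14. Other alternatives gave 26 to 36, and leaving out 1 replicate gave 27 to 34 in Mll-AF9 and 22 to 29 in wild type. Of the 61 calls, 39 were kept under every alternative run and 20 ended without some replicate. The only sign that turned was that of the uncalled Cdkn1c difference in CLP, −0.10 with the Y-linked level as a covariate (adjusted p = 1.00), and the cause was not tested. Replicate numbers did not pair the samples, since deviations of same-numbered replicates correlated at r = −0.27 to 0.15 and 0 or 1 replicate per population matched its own number best. With the replicate block the counts were 0 between genotypes, 32 in Mll-AF9 and 28 in wild type. That block ended the calls of Ccnd1 1417420_at in Mll-AF9 CMP against CLP and of Ccnd2 1455956_x_at in wild type GMP against CLP.

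Sex overlaps genotype, and it is not stated whether CMP arrays were normalised with the rest. HSC and CLP replicates spread widely, so intervals there exceed 1 unit for several probe sets. Values near 4.46 are not measured levels, and the number of arrays per group limits the calls.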
